A study of Mus musculus with 15 samples.

Results

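Elongating spermatids that devoted a large part of their mRNA to transition proteins were followed through 15 single-cell RNA-seq libraries of mouse testis. A cell was counted as such a spermatid when it had at least 500 genes and 1000 UMIs (unique molecular identifiers, each standing for 1 captured mRNA molecule), less than 30% mitochondrial UMIs, at least 10% of its UMIs on the 4 genes Prm1, Prm2, Tnp1 and Tnp2, and at most 1 UMI on the Sertoli cell genes Aard, Rhox8, Defb19 and Defb36. In addition, its ratio of late transcripts (Smcp, Oaz3, Gapdhs and Odf1) to transition-protein transcripts (Tnp1 and Tnp2, plus 1) had to lie below 0.179, the median of that ratio over all such cells of the untreated mice. These limits were met by 12435 of 76494 cells that passed the gene, UMI and mitochondrial limits, or 16.3%. The cells were thus selected on measured transcript levels, and the levels of the genes in these limits, and of any gene against other cells, are given as a description.

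The mice were DBA/2J males, and each library held 1 testis of 1 mouse, with 3 mice in each of 5 groups. JQ1, a small-molecule inhibitor of the BET bromodomain proteins, to which the testis-specific BRDT belongs, was injected intraperitoneally at 50 mg/kg every day for 3 weeks. Testes were taken at the end of dosing at 10 weeks of age (T), or 6 weeks after the last dose at 16 weeks of age (R). Vehicle-injected mice of the same ages served as VC-T and VC-R, and uninjected mice aged 15 weeks as untreated controls (UC). R and UC therefore differed in injection and in age as well as in JQ1. JQ1 acts on all BET proteins and was given to the whole animal.

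During spermiogenesis the haploid germ cell repacks its genome. Histones are first replaced by testis-specific variants, these give way to the transition proteins TNP1 and TNP2, and the transition proteins are in turn replaced by the protamines PRM1 and PRM2, which condense the DNA of the sperm head. The mRNAs of these proteins are made in round spermatids and stored under translational repression until the elongating stage, so a single elongating spermatid carries them at very high levels while transcription closes down.

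Elongating spermatids were nearly missing at the end of JQ1 dosing. T held 3 of 5841 cells (0.0514%, exact 95% Clopper-Pearson interval 0.0106 to 0.150%), 0 of 3992 cells, which allows a share of up to 0.0752% by a limit of 3 counts and up to 0.0924% by the exact interval, and 2 of 2569 cells (0.0779%, interval 0.00943 to 0.281%). In UC they made up 31.9%, 29.7% and 26.2% of the cells. VC-T was divided, with 17.0% in VC-T 2 and 38.0% in VC-T 3, but 1 of 5818 cells (0.0172%) in VC-T 1, the vehicle library that the study left out of its tests as an outlier. The mean share was 0.0431 ± 0.0396% in T (SD, n = 3) and 23.8 ± 13.5% in UC and VC-T (n = 6), with p = 0.0595 in an exact two-sided permutation test whose smallest possible value is 0.0119. Without VC-T 1 the difference was -28.5 percentage points (exact permutation p = 0.0179, the lowest value possible for 3 libraries against 5). Against VC-T alone, with VC-T 1 included, the exact permutation p was 0.3 and the smallest possible value 0.1. These intervals cover counting error only, and a share of captured cells also moves with the number of the other cells in the suspension.

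**Figure D1:**
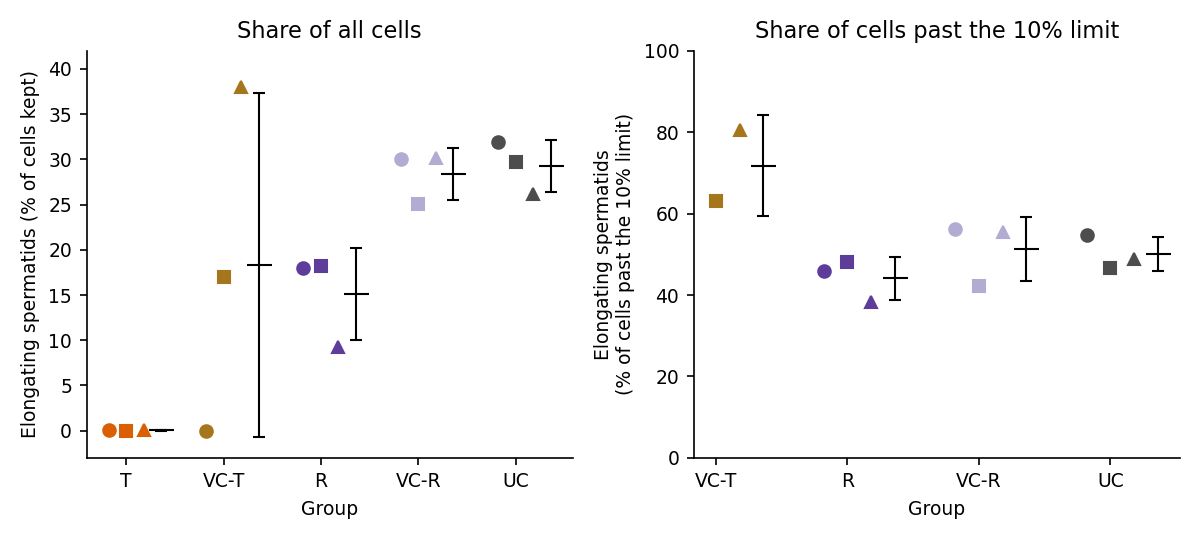
Elongating spermatids in each library as a percentage of all cells kept (left) and of the cells past the 10% limit with at most 1 Sertoli UMI (right). Circles, squares and triangles are replicates 1, 2 and 3, and bars are the group mean with 1 SD. T and VC-T 1 sit at or near 0 on the left and are left out on the right, and the R libraries lie between 9.24 and 18.2%, below all 6 UC and VC-R libraries.

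Most of the few cells that met the limits in T and VC-T 1 were small. The 5 cells of T had 1002, 1080, 3106, 1275 and 1956 UMIs, and the single cell of VC-T 1 had 1059. With a minimum of 2000 UMIs per cell, the ratio limit was set again on UC and fell to 0.165. No member was then left in T, nor in the control library VC-T 1. With VC-T 1 tied with T at 0, the exact permutation p became 0.0476. The cell with 3106 UMIs was lost through its ratio of 0.172 and not through its size. Under the main limits, UMIs on the 4 genes made up 13.4 to 23.4% of each of the 6 cells. Each of the 6 cells also held 2 to 13 UMIs of Hmgb4, an HMG-box gene of spermatids, while H2al3, a histone H2A variant of spermatids, was found with 1 UMI in 1 of them. Over all kept cells of these libraries, Prm1, Prm2, Tnp1 and Tnp2 took 0.0397 to 0.134% of UMIs in T and 0.0739% in VC-T 1, against 9.34 to 11.6% in the other 11 libraries.

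Transcripts of these genes were also counted in cells that held spermatocyte markers. In cells with at least 10 UMIs on 7 spermatocyte markers, the 4 genes took 0.529 to 1.64% of UMIs in the 11 libraries with spermatids, and 0.0124 to 0.0356% in T and VC-T 1. The median depth of those cells was 4034 to 23558 UMIs. Taken over these cells, the share of the 4 genes stayed far under the 10% limit in every library. Doublets were not removed, and the source of these UMIs was not tested.

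At 6 weeks after the last dose elongating spermatids were present, at a lower share of the cells than in the controls. R held 1266 of 7028 cells (18.01%), 1403 of 7725 (18.2%) and 1245 of 13471 (9.24%), whereas VC-R held 30.05%, 25.1% and 30.1%. All 3 R libraries lay below all 6 libraries of UC and VC-R, with means of 15.1 ± 5.11% (n = 3) and 28.8 ± 2.63% (n = 6), and the exact two-sided permutation p was 0.0119, the smallest possible. R against VC-R alone gave an exact permutation p of 0.1, again the smallest that 3 against 3 allows. The difference (R minus controls) was -13.7 percentage points, -8.27 with a minimum of 20% on the 4 genes and -8.09 with a minimum of 2000 UMIs per cell.

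Cells left out by the limit on Sertoli transcripts were more frequent in R. Among cells with at least 10% of UMIs on the 4 genes, more than 1 Sertoli UMI was found in 17.7%, 18.8% and 24.4% in R and in 1.80 to 12.0% in UC and VC-R, and those cells were left out by the rule. Without that limit, a setting added after seeing the data, R held 23.2%, 23.1% and 14.0% and the 6 controls 26.1 to 34.3%. When every cell was first thinned to 1000 UMIs, also added after seeing the data, R held 21.3%, 21.3% and 12.6% against 25.2 to 33.8%. The groups did not overlap in either case and p stayed at 0.0119.

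Past the 10% limit, the balance between low-ratio and higher-ratio cells was less clear. Elongating spermatids with a low ratio made up 45.8%, 48.2% and 38.2% of those cells in R and 56.1%, 42.3% and 55.5% in VC-R, and the groups overlapped (exact permutation p = 0.3). The UC libraries lay at 54.8%, 46.7% and 48.8%, near 50% because the limit was their own median. With the minimum on the 4 genes raised to 20%, R (57.0 to 60.2%) lay above VC-R (46.9 to 54.9%), so the direction of this difference depended on the limit. VC-T 3 stood apart with 80.5%.

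The ratio fell into a narrow group of cells and a broad one. In UC the members had a median ratio of 0.139 with quartiles of 0.120 and 0.156, whereas the cells above the limit had a median of 1.25 with quartiles of 0.245 and 7.19. The limit cut the upper flank of the narrow group. The UC member nearest to it had a ratio of 0.17906 and the nearest cell outside 0.17910, and 901 of 6258 UC cells lay within 10% of the limit. On the side of the 4 genes, the lowest UC member had a share of 10.03% and the nearest cell outside 9.94%, which left 151 UC cells within 10% of that limit. The class is thus a range of a continuous series of spermatids, and not a type with a gap on both sides.

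**Figure D2:**
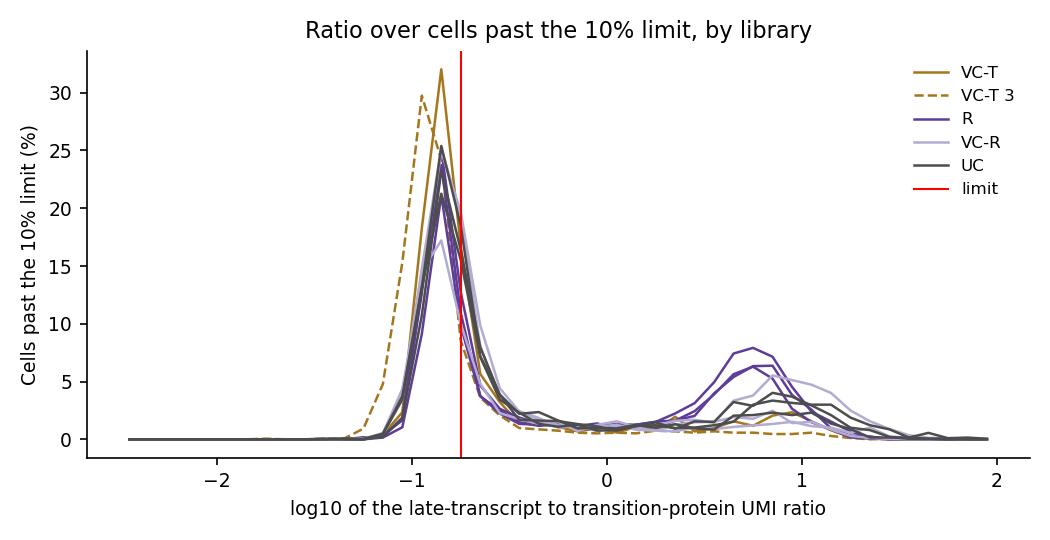
Distribution of the ratio of late-transcript UMIs to transition-protein UMIs (log10 axis) over the cells past the 10% limit, as a percentage of such cells in each of the 11 libraries with at least 10 members. Each line is 1 library and the red line is the limit of 0.179. VC-T 3, drawn dashed, has its peak at a lower ratio than the other libraries.

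Protamine and transition-protein mRNAs alone made up 21.3% of the UMIs of elongating spermatids in UC. A 3′ UMI count stands for molecules and not for length, so levels can be set side by side between genes, and they are given here as CPM (the UMIs of a gene scaled to a common total of member UMIs per library, as mean ± SD of the 3 UC libraries). Prm1 stood at 64684 ± 4336 CPM, Prm2 at 60273 ± 1163, Tnp2 at 55111 ± 836 and Tnp1 at 32645 ± 1045. The next genes were far lower. Smcp, which codes for a cysteine-rich protein of the sperm mitochondrial capsule, had 7194 CPM, Fabp9, a fatty acid binding protein of the perforatorium, 5665, Meig1, a manchette protein needed for tail formation, 5527, and Hmgb4 4788 ± 260. Gm5617 (4785 CPM), 1700003F12Rik (4320), the translation start factor gene Eif1 (4202), Dbil5 (4176), Mlf1 (4107), Gstm5 (4048) and Gsg1 (3851) completed the 15 highest genes, which together took 26.5% of all UMIs.

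The 4 genes kept much the same order in every library with spermatids. Tnp2 ranged from 5.21 to 5.64% of UMIs over the 11 libraries and Tnp1 from 3.15 to 4.31%. Prm1 was the most variable of them. It took 6.88%, 6.52% and 6.01% in UC, 7.73%, 8.496% and 6.87% in VC-R, 7.80%, 8.13% and 7.56% in R, and 7.57% and 9.89% in VC-T 2 and VC-T 3. The 3 R values were above the 3 UC values and within the range of VC-R. Prm2 was highest in VC-R 2 at 7.03% and lowest in R 3 at 5.64%. In the 5 cells of T pooled by library, Prm1 took 5.69% and 6.25% and Tnp2 3.53% and 4.83%. Those last values rest on 3 and 2 cells.

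**Figure D3:**
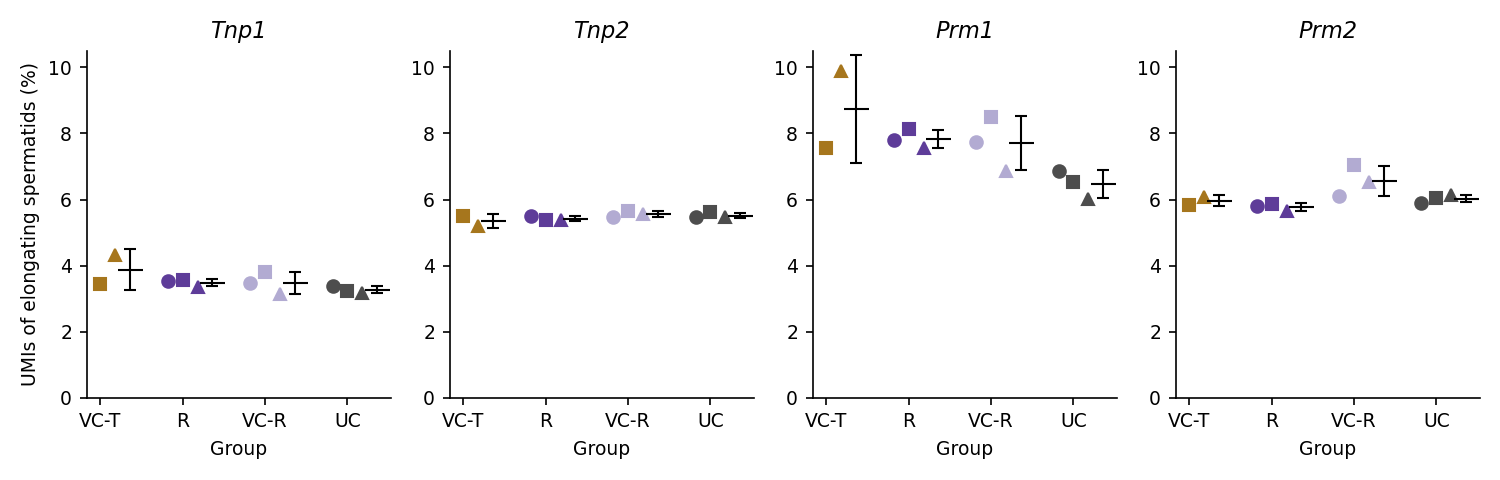
Percentage of the UMIs of elongating spermatids on Tnp1, Tnp2, Prm1 and Prm2 in the 11 libraries with at least 10 members. Symbols are replicates 1 (circle), 2 (square) and 3 (triangle), and bars are the group mean with 1 SD. Tnp2 lies within 5.21 to 5.64% throughout, and Prm1 is highest in VC-T 3 at 9.89%.

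Hmgb4 and H2al3, markers of the class that the limits did not use, were high in the members. They were named with earlier results of these data known, so their levels describe the class and do not check its label. Hmgb4 had 4488 to 5042 CPM in the 11 libraries and was above its level in the higher-ratio cells in 11 of 11 libraries, with 4788 against 2310 CPM in UC. H2al3 had 543 to 647 CPM, and in UC it had 613 ± 32.5 CPM against 174 in the higher-ratio cells and 254 in cells with 1 to 10% of UMIs on the 4 genes. H2al3 belongs to a multicopy histone family, so its reads may be shared with near copies. No test is given, since these cells were split by expression.

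Cells past the 10% limit with a higher ratio had lower levels of a set of named genes. H2al3 showed the highest ratio of the genes with at least 50 CPM, at 3.45-fold (after adding 5 CPM to both levels). It was followed by Frat1, an inhibitor of GSK3 in Wnt signalling (222 against 64.6 CPM), 4930455C13Rik (283 against 83.8), Cypt1, a testis-specific basic protein gene of the X chromosome (1016 against 313), and Sqor, a mitochondrial sulphide oxidising enzyme (407 against 123). The spermatid kinase gene Tssk1 had 652 against 212 CPM, Mapkapk2, a kinase downstream of p38, 82.2 against 24.2, Tmco2 998 against 334, the histone co-chaperone gene Dnajc9 552 against 185 and Ccdc185 259 against 85.6. All of these were higher in the members in 11 of 11 libraries, which include the UC libraries used to choose them. Among the packaging genes Tnp2 was 2.42-fold and Tnp1 1.73-fold higher than in the higher-ratio cells, whereas Prm2 was lower, at 60273 against 94948 CPM, and Prm1 was close, at 64684 against 63507.

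Other genes were low in cells with 1 to 10% of UMIs on the 4 genes, a mixed class that also held spermatocyte transcripts (Sycp1 204 CPM in UC, against 16.4 in the members). Cby3, a spermatid member of the Chibby family, had 309 CPM in the UC members against 41.0 in those cells, Calml4, a calmodulin-like gene, 125 against 15.6, and the antisense RNA Gm4665 268 against 39.8. The same held for the antisense RNA 1700003O11Rik (226 against 37.5), 1700084D21Rik (181 against 29.7), Gm27002 (73.8 against 9.74), the beta-defensin gene Defb33 (575 against 105), the kallikrein gene Klk1b3 (128 against 22.1), the outer dense fibre gene Odf3b (131 against 23.0) and Gm13539 (57.4 against 7.83). The counting of strand is not given in the sources used here, so the antisense RNAs cannot be told from their partner genes. Each of the 10 was higher in the members in 11 of 11 libraries, which include the UC libraries used to choose them. Against the higher-ratio cells, 1700084D21Rik (181 against 209 CPM in UC) and Klk1b3 (128 against 170) were lower, with the members above in 0 of 11 libraries. The others of the 10 were higher in the members there too, in 11 of 11 libraries, although Odf3b was close (131 against 116).

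Within the members, both markers were nearly level or fell along the ratio, and a few other genes rose. Cut into 4 bins at the UC quartiles, Hmgb4 had 4794, 4839, 4769 and 4779 CPM from the lowest to the highest bin, while H2al3 had 649, 667, 610 and 532 and Tnp2, which is part of the ratio, 59992, 57708, 53933 and 49467. Gm527 (27.6 to 73.4 CPM from the lowest to the highest bin), Fam209 (124 to 233), Slc16a7, a monocarboxylate transporter (94.4 to 176), and Gm37294 (69.1 to 141) had higher levels in the highest bin in UC, and did so in 11, 11, 10 and 11 of 11 libraries. Rpl13, a ribosomal protein gene, went from 1966 to 1480 CPM, and Sympk, a scaffold of the mRNA cleavage and polyadenylation machinery, from 422 to 309, and both were lower in the highest than in the lowest bin in 11 of 11 libraries. These 6 genes were chosen after their values were seen.

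Almost no mitochondrial RNA was found in these cells. The mean share of mitochondrial UMIs was 0.0437 to 0.129% per library, and 8.59 to 57.9% of the members held none at all. In the same libraries, cells with under 1% of UMIs on the 4 genes had a mean of 1.07 to 2.64%. The higher-ratio cells were also low, with a mean of 0.0972 to 0.181% per library. The low level was thus not particular to the members, although their mean was the lower of both classes in each library.

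The start sites of these genes were looked at for a cAMP response element, the site through which CREM activates spermatid genes. RefSeq promoters (GRCm38.p6, 250 bases upstream of the start) were searched for TGANNTCA, which reads the same on both strands and takes in the canonical site TGACGTCA. The pattern was chosen after these sequences had been read, and 11.9% of all 32851 promoters hold it. Tnp1, Prm1, Hmgb4 and H2al3 each hold 1 match, printed here with the match in capitals, on the strand of the gene and from 5′ to 3′. They are shown because they are packaging genes or markers that define or describe the class.
Tnp1 (chr1:73015975-73016004, minus strand): gcaaaggttagTGATGTCAcaagagagctg
Prm1 (chr16:10796869-10796898, minus strand): ctggtcctcttTGACTTCAtaattcctagg
Hmgb4 (chr4:128260951-128260980, minus strand): cagctcggggaTGACATCAcagtatccctt
H2al3 (chrX:9849595-9849624, plus strand): gtgggcactaaTGACATCAcaaaatttgtt

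The matches begin 94, 64, 74 and 97 bases upstream of the start of Tnp1, Prm1, Hmgb4 and H2al3. Tnp1, Hmgb4 and H2al3 hold the same 8 letters read on opposite strands (TGATGTCA or TGACATCA), which 2.93% of all promoters contain. No match was found in the windows of Tnp2, Prm2 and Smcp, the other 3 of 7 promoters searched. Prm1 (10796326 to 10805839), Prm2 (10791380 to 10796134) and Tnp2 (10787936 to 10788660) lie close together on chromosome 16 of GRCm38, and Tnp1 (73015074 to 73015909) on chromosome 1. Crem itself stood at 73.3 to 91.7 CPM in the 11 libraries, after scaling by TMM.

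Elongating spermatids of R carried more UMIs per cell than those of the controls. The median was 6393, 6432 and 11584 UMIs in R, 2710, 4874 and 2345 in VC-R, and 3014, 3902 and 3624 in UC. All R values lay above all 6 controls (8136 ± 2986 against 3411 ± 918, exact two-sided permutation p = 0.0119, the smallest possible). Without R 3 the difference fell from 4725 to 3001 UMIs. VC-T 2 had 9739 UMIs and VC-T 3 3234, so a vehicle library reached the level of R. The higher-ratio cells of R also had more UMIs (3197 to 5324) than those of UC and VC-R (1755 to 2425). So did cells with at least 10 UMIs on the 7 spermatocyte markers, with medians of 14120 to 23558 in R and 6987 to 11934 in UC and VC-R. The higher depth was thus not particular to the members. The median over all kept cells overlapped, at 2803 to 3821 in R and 2580 to 3954 in UC and VC-R.

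Gene number per cell followed the UMIs. Before thinning, R had 2196 genes per cell and the controls 1311. At 1000 UMIs per cell, R held 551, 552 and 560 genes, VC-R 548, 516 and 536, and UC 550, 544 and 558. The groups overlapped (554 ± 5.12 against 542 ± 14.6, exact permutation p = 0.19). After the UMIs of the genes of the limits were removed and the rest thinned to 500, R held 391 genes on average and the controls 385 (exact permutation p = 0.0357). The higher-ratio cells held 464 to 518 genes at 1000 UMIs in these 9 libraries.

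**Figure D4:**
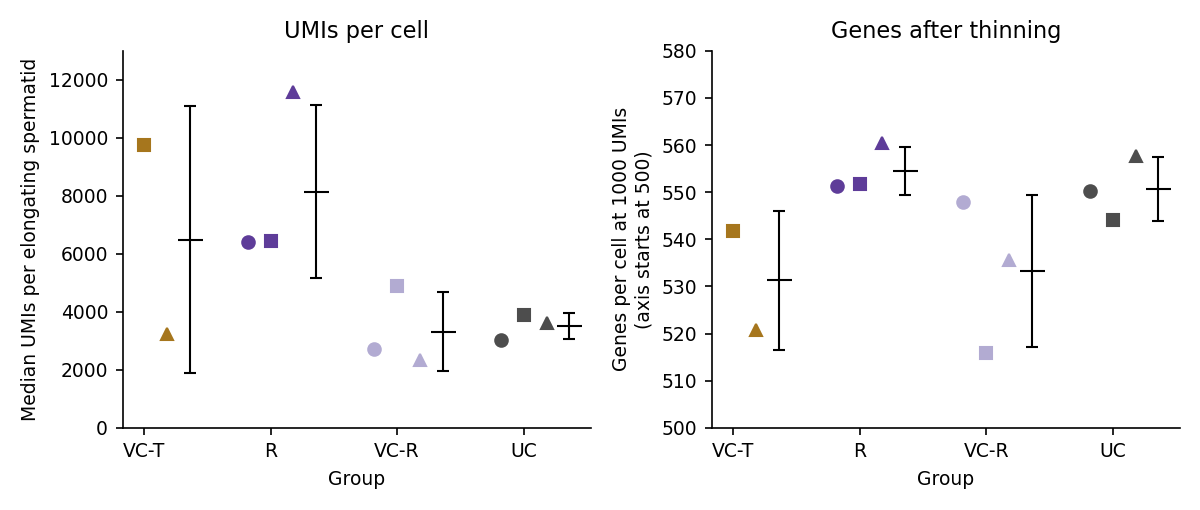
Median UMIs per elongating spermatid (left) and mean number of genes after thinning to 1000 UMIs (right, axis from 500) in the 11 libraries with at least 10 members. Symbols are replicates 1 (circle), 2 (square) and 3 (triangle), with the group mean and 1 SD. The R libraries lie at 6393 UMIs and above on the left, and overlap with UC on the right.

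Gene levels were then compared between groups on the summed UMIs of the members of each library, 2420986 to 16724724 UMIs in the 11 libraries. T could not be tested, having 5 cells. A gene was called when edgeR's quasi-likelihood test gave an adjusted p below 0.05 and the change was over 2-fold. The 12 genes of the limits and all mitochondrial genes were left out of the counts.

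R did not differ from VC-R in any of 11287 genes by these criteria (0%), nor by adjusted p alone, for which the smallest value was 0.698. At an unadjusted p below 0.05 there were 730 genes, and DESeq2 called 0 as well, with 407 genes at that p. This count rested on VC-R 1. Without that library, 27 genes were called, 25 of them higher in R. On simulated counts with the same libraries, 64% of the genes changed 2-fold and 100% of those changed 4-fold were called. A 2-fold change sits on the limit of the call, and by adjusted p alone 100% of those genes passed. The simulation gave all genes the same fixed spread between libraries and changed no gene of very low level. It therefore does not show what could be missed among genes with low counts or a larger spread between mice.

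The genes of chromatin repackaging were level between R and VC-R. Of 30 tested, beside the 4 genes of the limits, none passed in either direction. Their median log2 difference was -0.04, against 0.00 for all genes, and the highest value was 0.34 for Hist1h1t, at under 5 CPM. Prm3, an acidic protein gene of the protamine cluster, had 3303, 3149 and 2884 CPM (TMM-scaled, as are all levels below) in R and 3031, 3495 and 2990 in VC-R. Hils1, a linker histone of spermatids, had 2062, 2089 and 2020 against 1948, 2123 and 2232, and H2al2a, the H2A variant that opens nucleosomes to transition proteins, 1877, 1863 and 1727 against 1887, 2062 and 1919. Brdt, the target of JQ1 in the testis, stood at 17.6, 17.6 and 20.1 CPM in R, 21.7, 18.7 and 16.1 in VC-R and 16.7, 16.2 and 15.8 in UC.

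No gene of the other lists passed in R against VC-R either. Of 27 tested genes of mRNA storage and translation, 0 passed and the median log2 difference was 0.06, with values up to 0.82 for Prkra. Ybx2, the Y-box protein that holds protamine mRNA in store, had 439, 438 and 416 CPM in R and 460, 421 and 435 in VC-R, and Eif1 4137, 4129 and 4040 against 4121, 4797 and 4719. The 17 transcription regulators had a median of 0.07 and a lowest value of -0.65 for Taf7l. Medians were -0.02 for the 33 acrosome genes, 0.05 for the 37 manchette genes, -0.04 for the 26 ubiquitin genes, -0.02 for the 79 genes of oxidative phosphorylation (lowest -0.61 for Sdhc) and -0.05 for the 14 stress genes (highest 0.67 for Junb). The 36 tail genes ranged from -0.15 for Meig1 to 0.46 for Cfap65, and the 20 glycolysis genes from -0.23 for Eno1 to 0.40 for Pfkp. Hmgb4 and H2al3 differed by -0.08 ± 0.07 and -0.04 ± 0.07 (log2 ± SE, adjusted p = 0.88 and 0.96).

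Against untreated mice R differed in 19 genes (0.168% of 11287), of which 18 were higher (0.159%) and 1 was lower (0.00886%), and in 95 genes (0.842%) by adjusted p alone, 91 higher (0.806%) and 4 lower (0.0354%). The highest level among the 19 was that of 4930570D08Rik, a noncoding transcript of chromosome X (133898699 to 133901213). It had 885, 830 and 889 CPM in R and 400, 374 and 297 in UC, a log2 difference of 1.28 ± 0.10 (SE, adjusted p = 6.62e-09). The groups did not overlap. VC-R had 805, 750 and 694 CPM and VC-T 544 and 727, all above UC as well, and R against VC-R gave 0.21 ± 0.10 (adjusted p = 0.77).

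AY036118 and Gm48051, both noncoding, came next. AY036118 (chromosome 17, 39847113 to 39848035) had 48.2, 54.5 and 43.0 CPM in R, 20.4, 14.4 and 22.4 in UC and 45.4, 67.2 and 46.6 in VC-R (R against UC 1.33 ± 0.16, adjusted p = 1.53e-05). R lay above UC without overlap and within the range of VC-R. Gm48051 (chromosome 13, 49970001 to 49974260) had 62.3, 50.5 and 63.2 CPM in R, 25.4, 27.5 and 31.1 in UC and 45.2, 28.3 and 43.2 in VC-R (1.06 ± 0.14, adjusted p = 5.22e-05). Here R was the highest of the groups.

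Next came 3 protein-coding genes at low levels. Ap3s2, a subunit of the AP-3 vesicle adaptor (chromosome 7, 79875325 to 79920649), had 6.73, 10.9 and 9.23 CPM in R, 3.68, 3.34 and 1.71 in UC and 7.22, 3.26 and 3.39 in VC-R (1.70 ± 0.29, adjusted p = 0.00149). Slc6a11, a GABA transporter (chromosome 6, 114131241 to 114249952), had 8.86, 11.3 and 10.7 in R, 4.81, 5.39 and 4.18 in UC and 7.22, 5.70 and 5.93 in VC-R (1.13 ± 0.19, adjusted p = 0.00169). Gmnc, a geminin relative that starts multiciliated cell formation (chromosome 16, 26913553 to 26991652), had 14.5, 19.5 and 15.9 in R, 5.94, 7.19 and 3.99 in UC and 19.8, 7.54 and 3.81 in VC-R (1.58 ± 0.29, adjusted p = 0.00414). In each, R lay above UC in 3 of 3 libraries, and for Gmnc VC-R 1 was the highest library of all. No adjusted p from DESeq2 was available for these 3 genes. Without UC 3 these 3 genes no longer passed (adjusted p = 0.0791, 0.0624 and 0.122), and 6 genes were called in all. After thinning to 1000 UMIs, Ap3s2 and Slc6a11 did not pass either (adjusted p = 0.145 and 0.419), nor did Gmnc with a minimum share of 20% (adjusted p = 0.0504).

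Gpihbp1, which anchors lipoprotein lipase in capillaries (chromosome 15, 75596628 to 75599481), was the only gene called lower. It had 1.46, 1.23 and 0.975 CPM in R, 3.11, 3.08 and 3.23 in UC and 1.65, 1.83 and 1.69 in VC-R (-1.41 ± 0.32, adjusted p = 0.0266). At this level 1 CPM is a handful of UMIs, and the gene passed in 6 of the 13 alternatives in which it was tested.

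**Figure D5:**
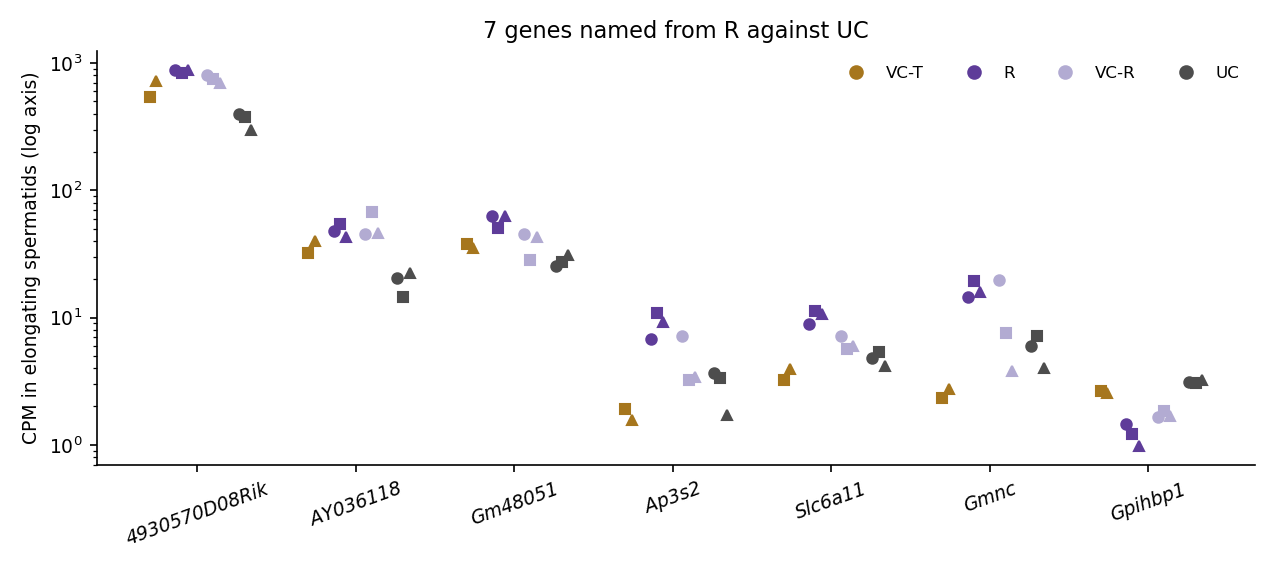
Level of the 7 named genes of R against UC in each of the 11 libraries (CPM scaled by TMM, log axis). Colours are groups and symbols replicates 1 (circle), 2 (square) and 3 (triangle). For 4930570D08Rik and AY036118 the VC-R libraries lie with R above UC, and for Gpihbp1 the R libraries lie at 0.975 to 1.46, below the UC libraries.

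Among the lists, 1 gene passed by adjusted p in R against UC, where 0.806% of all genes were higher. It was Atp5k, a small subunit of ATP synthase and 1 of 79 genes of oxidative phosphorylation, with 45.5, 43.1 and 42.7 CPM in R, 26.9, 22.3 and 26.8 in UC and 34.3, 34.6 and 35.2 in VC-R (0.78 ± 0.13, adjusted p = 0.00153). The VC-R values lay between both groups. None of the 30 packaging, 27 translation and 17 regulator genes passed, with medians of -0.02, -0.02 and 0.02 against 0.01 for all genes. Hmgb4 and H2al3 differed by 0.05 ± 0.07 each.

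The vehicle groups also differed from untreated mice, and these comparisons share the UC libraries with the last one. VC-R against UC gave 6 genes, all higher (0.0532%), and 34 by adjusted p alone (0.301%). Beside 4930570D08Rik and AY036118 they were 1700020N15Rik (195, 277 and 244 CPM in VC-R, 128, 114 and 107 in UC), Gm10076 (232, 318 and 297 against 105, 126 and 136), the bile acid transporter gene Slc10a2 (15.7, 20.2 and 22.5 against 6.79, 11.8 and 8.93) and Gm44753, named here after their values were seen. R lay at 188 to 198, 200.01 to 284, 16.4 to 16.6 and 6.77 to 7.54 CPM for these 4 genes.

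VC-T 2 and VC-T 3 against UC gave 28 genes (0.248%), 22 higher and 6 lower, and 161 by adjusted p alone (1.43%), 149 higher (1.32%) and 12 lower (0.106%). Only 4 were called without VC-T 3 and 127 without VC-T 2, where the remaining VC-T library was taken to vary like the other groups. Slc10a2 (17.8 and 25.6 CPM) and Gm10076 (328 and 477) were again higher. Lower in VC-T, and named after their values were seen, were the kinase genes Cdk8 (33.5 and 22.1 CPM against 41.6, 52.1 and 79.4 in UC) and Camk1d (79.7 and 30.2 against 118, 133 and 131). Of the lists, the glycolytic enzyme gene Eno1 and 4 of 79 genes of oxidative phosphorylation (Ndufa3, Atp5l, Atp5mpl and Atp5md) passed by adjusted p, all higher, beside 1.32% of all genes. Mice of VC-T and UC differed in age by 5 weeks as well.

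Markers of several other cell types were lower in the members than over all kept cells of the 11 libraries. Summed over each list, 5 Sertoli genes outside the limits took 4.3 to 10.9 CPM in the members and 22.6 to 216 over all kept cells, 5 Leydig genes 1.2 to 8.8 against 19.7 to 198, 7 spermatogonia genes 15.4 to 25.6 against 37.3 to 142 and 7 spermatocyte genes 50.9 to 102 against 784 to 1049. Closer in stage, 6 round spermatid genes took 447 to 525 CPM in the members against 715 to 1155 over all kept cells. Tssk6, the late spermatid marker outside the limits, went the other way, with 1199 to 1480 CPM in the members against 607 to 1102. The ranges overlapped for 4 myoid genes (8.0 to 17.1 against 5.8 to 57.9) and 3 endothelial genes (1.7 to 4.3 against 2.0 to 5.5). No gene of these lists was at 0 in all 11 libraries. They also overlapped for 5 macrophage genes (24.5 to 36.8 against 15.0 to 82.8), of which C1qb, up to 33.1 CPM in the members, reached 28.2 over all kept cells. Globin transcripts varied widely within every group, with 4 erythroid genes at 2.0 to 129 CPM in R, 0.4 to 131 in VC-R, 0.6 to 83.2 in VC-T and 1.6 to 54.6 in UC. Of the genes on these lists that were tested, none passed by adjusted p in any of the 4 comparisons. The part of other cells' RNA in the results was not tested.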

How the data were processed

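Testis cells of 15 mice were profiled with 10x Genomics 3′ chemistry. The authors deposited unnormalized UMI counts of 32285 genes for each cell barcode. Per the labels and methods, the authors counted them with Cell Ranger 3.0.0 on mm10, aligning with STAR, while the matrix headers name Cell Ranger 7.0.0, and whether introns were counted is not given in the sources used here. The study's own corrections for ambient RNA and doublets are not in these counts, and doublets were not removed here. Per the methods all libraries were sequenced together, so no batch could be compared. The members and gene lists were chosen with earlier results of these data known.

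Kept cells numbered 2569 to 13471 per library with 8971766 to 98048600 UMIs in all, and 2 libraries shared at most 31 kept barcodes and 2 member barcodes. Shares and per-cell medians were compared over libraries with exact two-sided permutation tests, which need no model across cells. Member UMIs were summed per library and fitted for 11 libraries at once with edgeR 4.0.16 (TMM, filterByExpr, quasi-likelihood test, Benjamini-Hochberg adjustment). T and VC-T 1, with fewer than 10 members each, did not enter. DESeq2 1.42.0 was an alternative, and scanpy 1.11.5 gave Scrublet scores. The edgeR step was tested on simulated data for R against VC-R (11281 genes). Composition was described as plain CPM and tested genes as TMM-scaled CPM. Named genes were the gene lists by counts, up to 6 called genes per direction with the smallest adjusted p in R against VC-R and R against UC, the 15 highest genes in UC members and the 10 with the highest ratio over each neighbouring class, at 50 CPM or more, and the genes of the limits. Positions are from GENCODE vM21 and promoters from RefSeq, both GRCm38. Each sample is 1 mouse, so p-values measure the spread between mice.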

Additional observations from a re-analysis of the deposited data

Results flagged for a closer look

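Cells past the 10% limit that held more than 1 Sertoli UMI were left out of the comparisons above, and their share was above that of the controls in both JQ1 groups. In T they were 8 of 11, 2 of 3 and 11 of 15 cells past the limit, a mean of 70.9% ± 3.69 (SD, n = 3) against 5.05% ± 3.61 in UC and VC-T (n = 6), higher in 3 of 3 libraries (exact two-sided permutation p = 0.0119, the smallest possible). In R the mean was 20.3% ± 3.58 against 4.99% ± 3.59 in UC and VC-R, again higher in 3 of 3 libraries (exact permutation p = 0.0119, 2 such comparisons made). The T shares rest on 29 cells in all, and among the controls the VC-T 1 share of 0% rests on 1 cell. R cells also carried more UMIs each, and the part of depth in this difference was not tested. Groups of 3 libraries are too small for the test for single outlying samples.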

How the results depend on the processing

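The lower share in R than in UC and VC-R kept its direction and the exact permutation p of 0.0119 under all settings of the rule, with differences of -8.09 to -14.9 points, and leaving out libraries gave -10.7 to -15.2. Taking differences within replicate numbers (replicate block) left -13.7 points with an exact permutation p of 0.25, the smallest 3 pairs allow, and likewise 4725 UMIs per cell. The numbers do not pair the mice (correlations of -0.159 to 0.132 in 15 same-number pairs). The lower share in T passed 0.05 with 2000 UMIs per cell (-26.1 points, exact permutation p = 0.0476), where VC-T 1 tied with T at 0. It also passed without VC-T replicate 1 (-28.5). Leaving out libraries gave -20.9 to -28.5 against UC and VC-T, -8.47 to -27.4 against VC-T alone, and for R against VC-R -10.3 to -14.9. The share among cells past the 10% limit in R against VC-R turned from -7.23 to 8.49 points with a minimum of 20%, and lay at -4.29 to -11.7 without single libraries. UMIs per cell differed by 3001 to 5597 without single libraries and genes at 1000 UMIs by 7.35 to 15.7. The gene difference passed 0.05 without thinning (885 genes) and with the genes of the limits removed (5.93 genes).

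Genes called in R against VC-R were 3 without a filter on low counts, 1 after thinning to 1000 UMIs and 0 to 27 without single libraries. In R against UC they were 5 with DESeq2, 60 without the filter, 47 with only these groups in the fit, 11 with members matched on the ratio, 11 after thinning and 6 to 19 without single libraries (6 without UC replicate 3, 12 without R replicate 3). VC-R against UC gave 18 without the filter and 3 to 12 without single libraries (3 without UC replicate 3, 12 without VC-R replicate 1), VC-T against UC 56 and 4 to 127 (4 without VC-T replicate 3, 127 without VC-T replicate 2, 13 without UC replicate 1). The block gave 0, 19, 5 and 20 genes in these 4 comparisons. The cause of these moves was not tested, other than fewer UMIs after thinning and fewer libraries. Genes near 1 CPM rest on few UMIs, and in T no gene could be tested. 4930570D08Rik, AY036118 and Gm48051 passed by adjusted p in all 16 alternatives run for single genes.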

Other observations

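Ribosomal protein genes, which no list held, were looked at after their values were seen, so no support is drawn from them. Of 82 tested, 4 were higher and 1 lower by adjusted p in R against UC (0.806% and 0.0354% of all genes), 4 higher in VC-R against UC (0.292%), and 10 higher and 1 lower in VC-T against UC (1.32% and 0.106%). These comparisons share the UC libraries. In R against VC-R none passed. Rps29, a protein of the small subunit, had 1134, 1094 and 1109 CPM in R, 1052, 1102 and 930 in VC-R, 847 and 1264 in VC-T and 667, 616 and 701 in UC (R against UC 0.75 ± 0.10 on the log2 scale, edgeR adjusted p = 7.09e-05). Rps27 (554, 570 and 534 in R against 355, 361 and 346 in UC) and Rpl38, of the large subunit (430, 439 and 421 against 286, 267 and 276), lay the same way, and Rps28 rose by 0.51 ± 0.11 (adjusted p = 0.0118). Rpl27 fell by 0.53 in R against UC on the log2 scale (edgeR adjusted p = 0.0408). The median over the 82 genes was -0.05 in R against UC, with 29 above 0, -0.11 in R against VC-R, with 14 above 0, and 0.06 in VC-R and 0.11 in VC-T against UC, with 58 above 0 in each. Short genes with many processed copies, such as these, can lose or gain reads in counting.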
